A study of Mus musculus with 20 samples.

Results

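The genes for the proteins of the cytosolic ribosome were followed through 20 RNA libraries of dural CNS-associated macrophages (dCAMs), which were sorted from the cranial dura. Members were chosen by symbol, as Rpl or Rps followed by a, by p0 to p2, or by a number with an optional a, x, l, al or l1. The pattern matched 86 symbols of 33243 in the table, and 84 of them reached the minimum of 10 counts over the 20 libraries, beside 2 that had no count at all. The 84 members were 53 genes of the large and 31 genes of the small subunit, and they were tested together with all other genes, 16632 in total.

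A ribosome joins a small subunit, which reads the messenger RNA, to a large subunit, which forms the peptide bond, and each ribosomal protein normally sits in it as a single copy, apart from the P proteins of the stalk. The mRNAs of these proteins carry a run of pyrimidines at their 5′ end (the TOP motif), through which the kinase mTORC1 controls their translation. Ribosomal protein mRNAs are among the abundant transcripts of most cells, macrophages included.

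All mice were Ccr2creERT2/+ R26tdT/tdT, so that tamoxifen switched on the red fluorescent protein tdTomato (tdT) in cells that expressed Ccr2, a monocyte chemokine receptor, while the drug was present. All of them, controls included, had received the CSF1R inhibitor BLZ945 (200 mg/kg for 7 days), and tamoxifen (2 mg per day) on its last day and 2 and 4 days after that. After 8 weeks LPS (2.5 mg/kg) or PBS (CTL) was given, and 12 h later CD45int CD11b+ CD206int-high cells of each dura were separated by tdT, which gave a tdT− library and a tdT+ library per mouse. There were 5 mice per treatment, numbered 174, 175, 177, 178 and 179 for CTL and 54, 56, 59, 60 and 61 for LPS, hence 4 groups of 5 libraries. The label records Ccr2 expression in a window of some days after depletion, and a tdT− cell is one that was not labelled then, whatever its origin.

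Library totals ranged from 6017650 to 12208203 counts in CTL and from 12073566 to 18925908 in LPS mice. The 12 dCAM markers (Mrc1, Cd163, Pf4 and others) had over 3 counts in every library. Their summed level was 19895 to 41807 CPM (counts scaled by library size and TMM factor) in tdT− CTL and 40627 to 49893 in tdT+ CTL, and 11941 to 16567 (tdT−) and 15259 to 18671 (tdT+) under LPS. Of the 12, 7 fell and 1 rose under LPS in each population, and 4 were higher in tdT+ than in tdT− dCAMs of CTL mice. The summed level of 8 neutrophil markers was 1.87 to 181 CPM (tdT−) and 0.733 to 31.1 (tdT+) in CTL and 262 to 823 (tdT−) and 244 to 571 (tdT+) in LPS mice, and 2 of the 8 rose in each population. Under LPS, S100a8 was at 100 to 625 (tdT−) and 100 to 465 CPM (tdT+), and Mmp8 at 69.1 to 138 and 56.9 to 142 CPM. Retnlg was at 23.2 to 642 CPM in tdT− LPS and up to 1.02 CPM in tdT+ LPS. S100a9, Ly6g, Cxcr2, Ngp and Camp reached at most 7.65 CPM in any LPS library. Of 6 classical monocyte markers, 3 were lower and 1 higher in tdT+ than in tdT− dCAMs of CTL mice. The summed level of the 6 was 1707 to 2515 CPM in tdT− CTL and 1975 to 4341 in tdT+ CTL. F13a1 alone held 977 to 1883 and 1724 to 3874 CPM of these. Under LPS the sum was 1946 to 3711 (tdT−) and 2412 to 3850 CPM (tdT+). The tdT− CTL libraries stood apart. They held 6671 to 9365 genes with at least 10 counts, against 10024 to 11032 in tdT+ CTL and, under LPS, 10930 to 11812 (tdT−) and 11250 to 11987 (tdT+). The summed level of 6 dendritic cell markers that passed the count minimum, of 7 listed, was 767 to 3345 CPM in tdT− CTL, 222 to 401 in tdT+ CTL and, under LPS, 277 to 642 (tdT−) and 14.2 to 71.3 (tdT+). Cd209a was the most abundant of them in tdT− CTL, whereas Xcr1 and Clec9a, which define the cDC1 type, had no count there. Siglech went the other way, with 3.14 to 149 CPM in tdT− CTL and 171 to 324 CPM in tdT+ CTL. In tdT− LPS, Ccr7 alone held 222 to 599 CPM of the dendritic cell sum. The summed level of 6 fibroblast markers ran from 10.9 to 4668 CPM in tdT− CTL and from 73.6 to 415 in the other groups. The part of these markers in the results that follow was not tested. In bulk RNA, a smaller number of cells of a type and less RNA per cell cannot be told apart.

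CTTTCC, a stretch of pyrimidines of the kind found in TOP motifs, was looked up around the start sites of the members. RefSeq promoter windows of build GRCm38.p6 were at hand for 63 members. CTTTCC on the sense strand, from 30 bases before to 50 after an annotated start, was found in 19 of them (30.2%) and in 4.36% of all 27025 genes with a window. Over the whole window of 300 bases and on either strand, the shares were 54.0% and 29.3%. Windows of 4 members whose values follow are shown 5′ to 3′ on the strand of the gene, with CTTTCC in capitals, to show where around the annotated start it was found. Counted from the RefSeq start as base 1, the stretch began at base 1 for Rpl38, base 2 for Rps27 and base 26 for Rpl26. For Rpl4 it began 17 bases before the start. It is thus not at the RefSeq 5′ end for Rpl26 and Rpl4. GENCODE M21 starts these genes at other bases (chr11:114668524 for Rpl38 and chr11:68901583 for Rpl26), so the positions depend on the annotation. Rpl38, Rps27, Rpl4 and Rpl26 fell under LPS in tdT− dCAMs. In all, 10 of the 19 members with CTTTCC and 30 of the 44 without it fell there, beside 4.85% of all genes. The windows lie at chr11:114668568-114668597 on the plus strand (Rpl38), chr3:90213630-90213659 on the minus strand (Rps27), chr9:64173358-64173387 on the plus strand (Rpl4) and chr11:68901579-68901608 on the plus strand (Rpl26).
Rpl38: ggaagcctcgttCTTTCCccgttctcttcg
Rps27: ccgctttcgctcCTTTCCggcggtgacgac
Rpl4: caagtgacaagtCTTTCCttttcctgtggg
Rpl26: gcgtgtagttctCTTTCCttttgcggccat

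ACTTCC, a core of ETS factor sites, was found on either strand in 49.2% of the members and 26.5% of all genes, and TATAAA in the 50 bases before the start in 1.59% and 3.15%. A match is a description of these letters and not a functional site. The 19 members with CTTTCC and the 44 without it had like medians of the log2 fold change under LPS in tdT− dCAMs (−1.09 and −1.04) and between the populations in CTL mice (−0.96 and −1.07).

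The members' share of all counts was highest in tdT− dCAMs of CTL mice. It was 1.37% (mouse 174), 0.728% (175), 1.23% (177), 1.48% (178) and 0.918% (179) there, with a mean of 1.14% ± 0.314 (SD, n = 5). In tdT+ CTL it was 0.671%, 0.567%, 0.491%, 0.586% and 0.548% in the same order of mice, with a mean of 0.573% ± 0.0653. Each of the 5 tdT− CTL libraries lay above the other 15, and in every CTL mouse the tdT− library exceeded its tdT+ partner, by 1.28-fold in mouse 175 and by 1.68-fold to 2.53-fold in the other 4. Mouse 175, with the smallest gap, also had the tdT− CTL library with the most detected genes (9365), and the part of this in the result was not tested.

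In LPS mice the share was 0.582% (mouse 54), 0.516% (56), 0.488% (59), 0.563% (60) and 0.515% (61) in tdT− dCAMs and 0.518%, 0.505%, 0.490%, 0.471% and 0.413% in tdT+ dCAMs. These ranges overlapped each other and that of tdT+ CTL. The means were 0.533% ± 0.0385 and 0.480% ± 0.0409 (SD, n = 5 each). The Wilson 95% interval of a library was at most 0.00882 percentage points to either side, which covers counting error only.

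**Figure D1:**
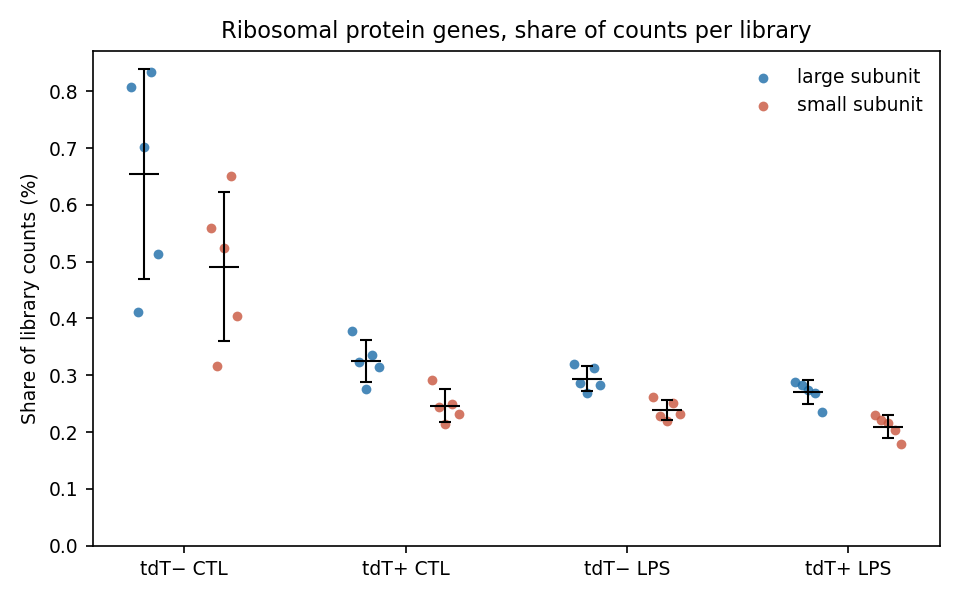
Share of library counts (%) held by large subunit (blue) and small subunit (red) ribosomal protein genes in the 4 groups, a point per library, with the mean and SD as black bars. Large subunit genes held 0.654% ± 0.185 and small subunit genes 0.491% ± 0.131 in tdT− CTL, and both were lower, with a narrower spread, in the other groups.

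Large and small subunit genes kept nearly the same proportion. The large subunit took 57.0% ± 1.27 (tdT−) and 56.9% ± 0.570 (tdT+) of the members' counts in CTL mice, and 55.2% ± 0.257 (tdT−) and 56.3% ± 0.532 (tdT+) in LPS mice. The 5 tdT− LPS libraries (55.0% to 55.6%) lay below every other library (from 55.7%). The spread between replicates was wide in tdT− CTL. Over the 74 members with a mean of at least 10 CPM, the median coefficient of variation was 40.5% there, against 16.4% in tdT+ CTL and, under LPS, 10.7% (tdT−) and 12.5% (tdT+).

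Per kb of transcript (the median length over the annotated transcripts of a gene), Rps9 had the highest mean over the 20 libraries with 476 CPM per kb, ahead of Rps14 (401), Rps3 (330), Rpl37a (310) and Rps29 (262). Rps9 and Rps3 lie at the mRNA entry of the small subunit. The median small subunit gene stood at 118 CPM per kb and the median large subunit gene at 80.7, with quartiles of 79.5 to 174 and 40.2 to 136 that overlapped. Without the correction for length, Rps9 (392 CPM), Rpl4 (372), Rps3 (314), Rps14 (241) and Rpl13 (173) led, and the first 5 held 21.7% of the members' summed CPM. In all, 21 members had a mean of at least 100 CPM and 10 stayed under 10 CPM.

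Some constitutive ribosomal proteins were listed with very few counts. Rpl24 had 57 counts over all libraries and none in any of the 10 CTL libraries, Rps10 had 217, Rpl23a 976 and Rpl13a 994. These 4 share 28.7% to 62.3% of their exon bases with another annotated gene, and 16 members share over 10%. The largest overlap, 66.2%, is that of a member at 22.1 to 89.7 CPM, and Rpl5 (26.7%) was at 22.9 to 113 CPM. A large overlap thus did not always go with few counts, and its part in the low counts was not tested. How reads in shared bases and multi-mapping reads were assigned is not given in the sources used here. The values of these 4 are therefore uncertain. The table also held 238 rows named as pseudogenes of members, whose counts summed to 0.68% of the members' own. Rpl10l (10 counts), Rpl3l (41) and Rpl39l (67), the paralogs known from testis and striated muscle, were at or near the floor of 3 counts in most libraries, as was Rpl6l (20), annotated as a processed pseudogene.

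**Figure D2:**
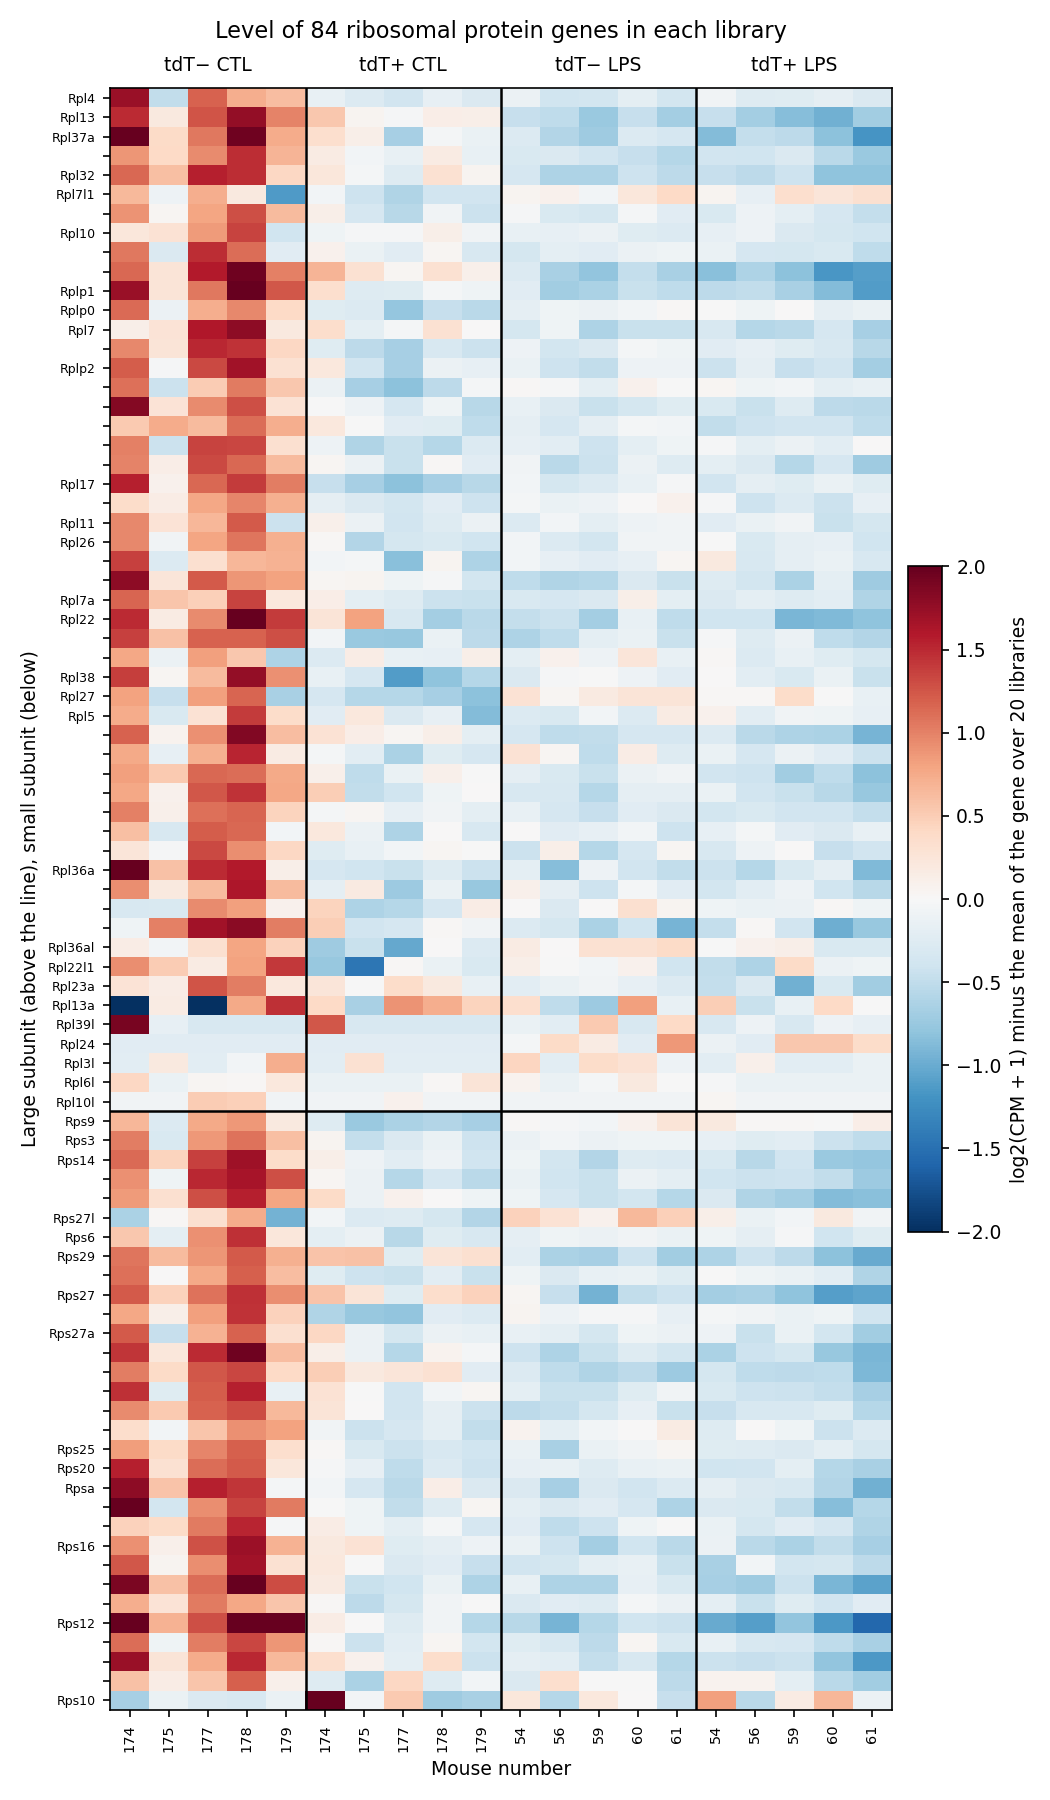
Heat map of log2(CPM + 1) minus the mean of the gene over the 20 libraries (color, −2 to 2) for the 84 members in rows, ordered by subunit and mean level, with labels for members named in the text, and libraries in columns, labelled by mouse. The columns of tdT− CTL are red for most rows, most deeply in mice 174, 177 and 178 and least in mouse 175. Rps27l and members with few counts, such as Rps10, Rpl24 and Rpl13a, do not show this.

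The first comparison asked how LPS acts on tdT− dCAMs. Of the 84 members, 56 fell (66.7%) and 0 rose at an adjusted p under 0.05 in edgeR's quasi-likelihood test, and 45 of the 56 fell by more than 2-fold. Among all genes tested, 4.85% fell and 7.67% rose by the same rule, and 4.27% fell and 7.2% rose by more than 2-fold. Of the 5823 well expressed genes, here those whose mean log2 CPM reached 4, 10.2% fell and 7.09% rose. The fitted value was negative in 80 members, as it was in 50.2% of well expressed genes, and positive in 4 (49.8%). At an unadjusted p under 0.05, 69 members were lower and 1 was higher, and DESeq2 and limma-voom with quality weights called 70 and 49 lower and 0 higher. The median log2 fold change was −1.13 over all members, −1.06 over the large and −1.25 over the small subunit, beside 0.02 over all genes. In the small subunit 25 of 31 genes fell and in the large subunit 31 of 53. Whether the subunits differ was not tested. In 48 members every LPS library lay below every CTL library, which held for 3.31% of all and 7.09% of well expressed genes. In 0 members they lay above, against 9.32% and 9.91%.

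Rps12, a small subunit protein that takes part in cell competition in flies, had the lowest fold among them. It was at 213, 55.6, 84, 205 and 145 CPM in tdT− CTL (mice 174, 175, 177, 178, 179) and at 22.7, 17.4, 22.5, 25.6 and 24.9 CPM in tdT− LPS (54, 56, 59, 60, 61). Every CTL library exceeded every LPS library, and the log2 fold change was −2.63 ± 0.39 (SE, adjusted p = 9.06e-05 in edgeR). The gene (chr10:23785183-23787275, minus strand, GRCm38) shares 13.7% of its exon bases with Snora33, Snord100 and Gm23130.

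Rpl13 had the smallest p. Its levels were 410, 166, 348, 492 and 289 CPM in tdT− CTL and 105, 102, 86.8, 105 and 90.7 CPM in tdT− LPS, again without overlap. The log2 fold change was −1.80 ± 0.25 (adjusted p = 3.83e-05). Rpl32 followed with 312, 213, 415, 393 and 187 CPM in tdT− CTL against 111, 90.7, 91.3, 105 and 96.9 CPM in tdT− LPS (log2 fold change −1.62 ± 0.24, adjusted p = 7.63e-05).

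The stalk, which recruits the GTPases of translation, fell with the rest. The log2 fold change was −0.77 ± 0.24 for Rplp0, −1.93 ± 0.30 for Rplp1 and −1.28 ± 0.31 for Rplp2, the pair of acidic P proteins that Rplp0 anchors (adjusted p of 0.0386, 0.000136 and 0.00761). Rpsa, which is also the laminin receptor precursor, fell by 1.6 on the log2 scale (SE 0.35, adjusted p = 0.00338). Rps6, the substrate of S6 kinase, was at −0.83 ± 0.27 (adjusted p = 0.0486). Rpl5 and Rpl11, which bind Mdm2 when they are free of the ribosome, were at −0.76 ± 0.36 and −0.80 ± 0.31 and did not pass (adjusted p of 0.161 and 0.0911).

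Among the most abundant members, Rpl4 (−1.21 ± 0.26), Rps3 (−0.83 ± 0.21) and Rps14 (−1.40 ± 0.24) fell, and so did Rpl38 (−1.21 ± 0.36) and Rpl26 (−0.91 ± 0.28), with adjusted p of 0.000347 to 0.0379. The 28 members that did not pass held all 10 with a mean under 10 CPM, and among the abundant ones Rps9, Rps27l and Rpl7l1. Rps9 was at 592, 309, 632, 685 and 431 CPM in tdT− CTL and at 381, 369, 362, 399 and 446 CPM in tdT− LPS, and mouse 175 lay below the whole LPS group (log2 fold change −0.44 ± 0.19, adjusted p = 0.125). Rpl24 (2, 7, 5, 0 and 14 counts in tdT− LPS and 1, 0, 10, 9 and 9 in tdT+ LPS) had the highest fitted value, from so few counts that no fold is given, and Rpl10l (4 counts in each of 2 tdT− CTL libraries, 0 in tdT− LPS) had the lowest.

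With only the 10 libraries of the comparison in the fit, 17 members fell, and the cause was not tested. Without LPS mouse 54, 56 or 59 it was 37, 36 or 37. Without the 2 tdT− CTL libraries with the fewest genes (174 and 179), 62 fell.

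**Figure D3:**
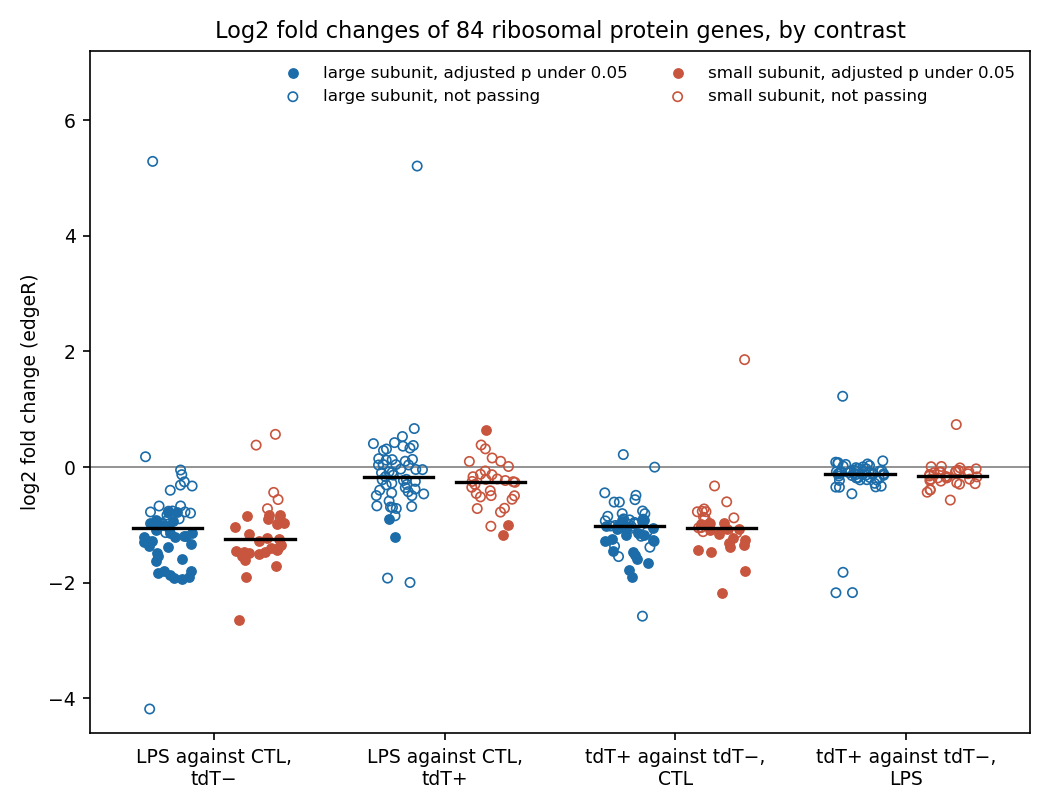
Log2 fold change of each member in 4 contrasts, by subunit (blue large, red small), with filled points for an adjusted p under 0.05 in edgeR and black lines for the medians. The points sit around −1 for LPS against CTL in tdT− dCAMs and for tdT+ against tdT− in CTL mice, and near 0 in the other contrasts; the outlying points belong to Rpl24, Rpl10l and other members with few counts.

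The second comparison set tdT+ against tdT− dCAMs in CTL mice, and shares the tdT− CTL libraries with the first. In tdT+ dCAMs 39 members were lower (46.4%), 32 of them by more than 2-fold, and 0 were higher. Of all genes, 1.58% were lower and 3.1% higher by the same rule, and 1.27% lower and 3.01% higher by more than 2-fold, while of well expressed genes 3.42% were lower and 1.15% higher. The fitted value was negative in 81 members, beside 55% of well expressed genes, and positive in 2, beside 45%. At an unadjusted p under 0.05, 69 members were lower and 0 higher, while DESeq2 called 70 lower and limma-voom with quality weights 21. The lower members were 23 of 53 of the large and 16 of 31 of the small subunit, with median log2 fold changes of −1.03 and −1.05. In 56 members tdT+ lay below tdT− in all 5 mice, which held for 3.61% of all and 7.25% of well expressed genes, and in 0 above (5.85% and 7.45%).

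Both libraries of a mouse come from the same dura. With mouse as a replicate block in edgeR, 14 members were lower. With only the 10 CTL libraries in the fit, 0 were lower at an adjusted p under 0.05 and 45 at an unadjusted p under 0.05, and only 6 genes in the whole table were lower in that fit. Without mouse 177 or 178 the count was 22 or 23, and without the 2 tdT− CTL libraries with the fewest genes it was 59. Over all 84 members the median log2 ratio within a mouse, on log2(CPM + 1), was −0.92 (174), −0.30 (175), −1.33 (177), −1.40 (178) and −0.77 (179). It was negative in all 5 mice, and weakest in mouse 175.

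Rpl17, which lines the exit tunnel of the large subunit, had the smallest p in this comparison. It was at 182, 65.3, 137, 163 and 125 CPM in tdT− CTL and at 44.5, 38.4, 34.4, 38.4 and 41.3 CPM in tdT+ CTL. The groups did not overlap (log2 fold change −1.77 ± 0.29, adjusted p = 0.000974 in edgeR). The adjusted p of Rpl17 in edgeR was 0.0242 with mouse as a replicate block. It was 0.219 with only the 10 CTL libraries and 0.670 with both changes, in the same direction. Rps12 was lower in tdT+ as well, at 37.6, 34.2, 28.3, 32.3 and 22.5 CPM (−2.18 ± 0.39, adjusted p = 0.00176).

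Rps9 was at 313, 223, 240, 249 and 236 CPM in tdT+ CTL, which is below the tdT− library of the same animal in every mouse, though the highest tdT+ and the lowest tdT− library overlapped (−1.07 ± 0.19, adjusted p = 0.00176). The adjusted p of Rps9 in edgeR was 0.0119 with mouse as a replicate block. It was 0.219 with only the 10 CTL libraries and 0.596 with both changes, in the same direction. Rps10 was the only member with a fitted value over 0.3 in this comparison, and it rests on 1 to 39 counts per CTL library (1.86 ± 1.11, adjusted p = 0.335).

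Each title begins with the letter F or M, and the values were also taken within each letter. The median log2 ratio of group means over the 84 members, on log2(CPM + 1), was −0.70 among the F mice (3 against 3 libraries) and −1.38 among the M mice (2 against 2). For LPS in tdT− dCAMs it was −0.87 (F, 2 against 3) and −1.41 (M, 3 against 2), so the direction held within both letters.

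The third comparison asked how LPS acts on tdT+ dCAMs. Here 1 member rose and 4 fell, which is 1.19% and 4.76% of the members, beside 3.79% of all genes higher and 2.83% lower (6.39% and 6.47% of well expressed genes). By more than 2-fold, 0 rose and 3 fell, beside 3.37% and 2.52% of all genes. The fitted value was negative in 58 members (43.2% of well expressed genes) and positive in 26 (56.8%). The median log2 fold change was −0.17 over the large and −0.25 over the small subunit, beside 0.01 over all genes and 0.12 over well expressed genes. At an unadjusted p under 0.05, 11 members were lower and 2 higher, and DESeq2 called 12 lower and 1 higher. With only these 10 libraries in the fit, 13 fell and 3 rose, and without LPS mouse 60 or 61, 2 fell. In 15 members all LPS libraries lay below all CTL libraries (7.19% of all and 13.3% of well expressed genes did) and in 4 members above (10.6% and 19.5%).

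Among the 4 that fell were Rps27, Rps29 and Rpl13. Rps27 (chr3:90212522-90213651, minus strand), one of the zinc-binding proteins of the small subunit, went from 122, 97.9, 68.7, 104 and 114 CPM in tdT+ CTL to 50.9, 52.1, 46.2, 37.5 and 38.8 CPM in tdT+ LPS (log2 fold change −1.17 ± 0.27, adjusted p = 0.00899 in edgeR). Rps29, which also binds zinc, went from 136, 137, 77.4, 110 and 114 CPM to 59.0, 68.0, 63.3, 51.2 and 45 CPM (−1.0 ± 0.25, adjusted p = 0.0132).

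The CTL and LPS libraries of Rps27 and Rps29 did not overlap in either population. In tdT− dCAMs the log2 fold changes under LPS were −1.50 ± 0.27 for Rps27 and −1.45 ± 0.25 for Rps29, and both passed there as well. The tdT− libraries are other libraries but come from the same mice, so this is not an independent repeat. For these genes the LPS effect was not shown to differ by population (0.34 ± 0.38 and 0.45 ± 0.34, adjusted p of 0.912 and 0.735). Rpl13 fell by 0.90 on the log2 scale in tdT+ dCAMs (SE 0.24, adjusted p = 0.0249), from 143 to 211 CPM down to 74.0 to 106 CPM.

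The member that rose was Rps9 (chr7:3703993-3706897, plus strand), which shares no exon base with another gene. It was at 428, 380, 381, 372 and 410 CPM in tdT+ LPS, above all 5 tdT+ CTL libraries (223 to 313 CPM). The log2 fold change was 0.64 ± 0.19 (adjusted p = 0.0411 in edgeR). The call was lost when any LPS mouse (adjusted p of 0.0838 to 0.133) or CTL mouse 177, 178 or 179 (0.0608 to 0.0935) was left out, with the same direction. Rpl17 (0.41 ± 0.28), Rpl27 (0.67 ± 0.37) and Rplp0 (0.37 ± 0.24) were also without overlap on the higher side and did not pass.

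**Figure D4:**
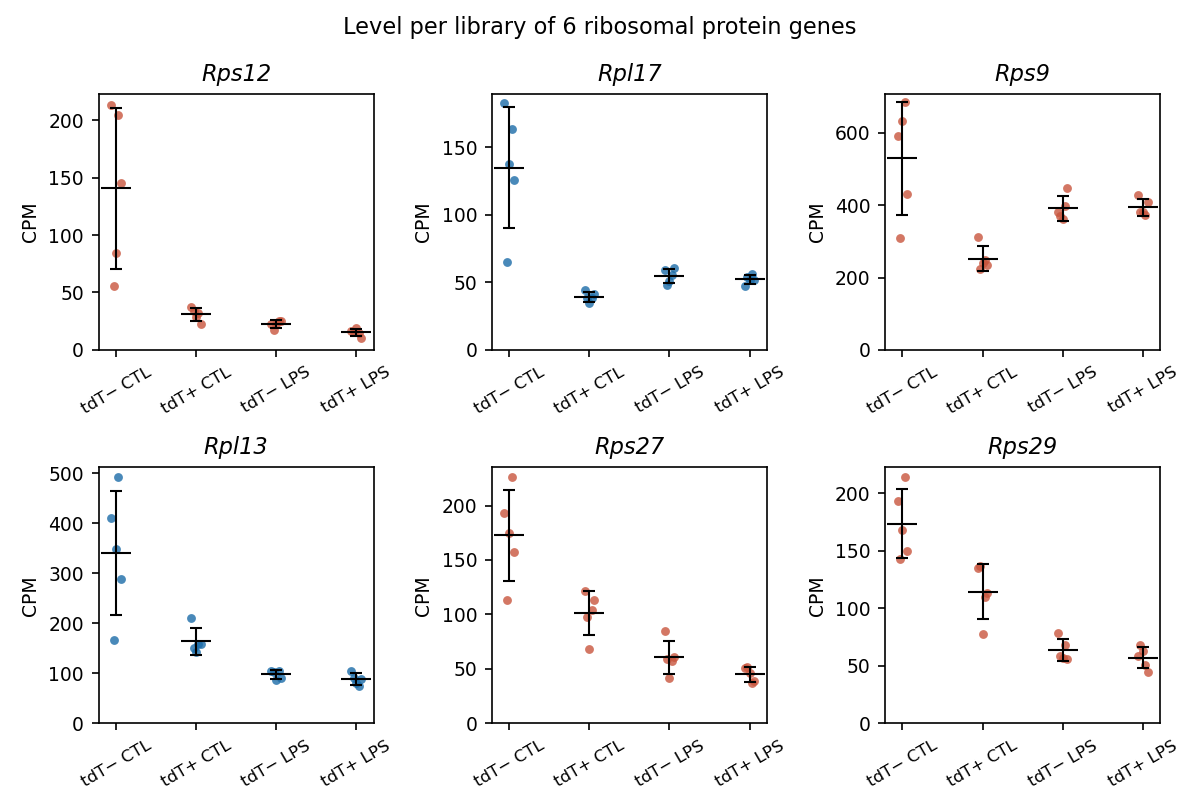
CPM per library of Rps12, Rpl17, Rps9, Rpl13, Rps27 and Rps29 in the 4 groups, a point per library, with mean and SD as black bars and each axis starting at 0. Rpl13, Rps27 and Rps29 are lower in LPS than in CTL in both populations, while Rps9 in tdT+ LPS (372 to 428 CPM) lies above tdT+ CTL (223 to 313 CPM).

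The fourth comparison set tdT+ against tdT− dCAMs in LPS mice. No member passed in either direction in edgeR, and 0 were under an unadjusted p of 0.05. The background was 0.0301% of all genes lower, with or without a change over 2-fold, and 0% higher, and 0.0859% of well expressed genes lower. The fitted value was negative in 71 members (47.4% of well expressed genes) and positive in 13 (52.6%). DESeq2 and limma-voom with quality weights also called 0 members, with 1 and 4 lower at an unadjusted p under 0.05. The median log2 fold change was −0.12 over all 84 members, with quartiles of −0.22 and −0.06. In 7 members tdT+ lay below tdT− in all 5 mice and in 1 above, where 4.71% and 5.19% of all and 7.59% and 9.12% of well expressed genes did. Within a mouse the median log2 ratio on log2(CPM + 1) was −0.08 (54), −0.00 (56), 0.03 (59), −0.29 (60) and −0.30 (61), so mice of this group did not share a direction.

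The difference between the LPS effects (tdT+ minus tdT−) draws on all 4 groups. It was positive in 77 members and had a median of 0.91, against 0.03 over all genes, and it passed in 2 members on the higher side and 0 on the lower. The background was 0.0902% of all genes higher, also by more than 2-fold, and 1.17% lower, and 0.206% and 0.155% of well expressed genes. A positive value was seen in 55.7% and a negative one in 44.3% of well expressed genes. At an unadjusted p under 0.05, 38 members were higher and 0 lower. DESeq2 called 34 and limma-voom with quality weights 4.

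The 2 members were Rpl17 (difference 1.71 ± 0.40, adjusted p = 0.0357) and Rps9 (1.08 ± 0.26, adjusted p = 0.0463). Rpl17 went from a tdT− CTL mean of 135 ± 44.7 CPM to 54.7 ± 5.24 under LPS, and in tdT+ dCAMs from 39.4 ± 3.77 to 52.2 ± 3.25 CPM. Under LPS the populations overlapped for both genes. Both calls were lost when any of the LPS mice, or CTL mouse 177 or 178, was left out, and with mouse as a replicate block in edgeR (adjusted p = 0.179 for Rpl17 and 0.0999 for Rps9), with the same direction throughout.

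Paralogs of ribosomal proteins were set beside their counterparts as the ratio of CPM per kb. Rps27l, a paralog of Rps27 that p53 induces, was at 71.0, 113, 138, 186 and 57.3 CPM in tdT− CTL and at 154, 136, 118, 174 and 154 CPM in tdT− LPS (log2 fold change 0.38 ± 0.28, adjusted p = 0.379). In tdT+ dCAMs it was at 107, 91.2, 92.6, 86.7 and 73.7 CPM in CTL and 120, 101, 107, 128 and 106 CPM in LPS (0.32 ± 0.28, adjusted p = 0.64). Its own level thus did not pass in either population, whereas Rps27 fell in both.

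The ratio of Rps27l to Rps27 (SD, n = 5 each) was 53.4% ± 22.9 in the tdT− and 74.1% ± 20.6 in the tdT+ libraries of CTL mice, and 199% ± 36.6 and 204% ± 44.0 in those of LPS mice. The highest CTL library (108%) lay below the lowest LPS library (145%). Rpl7l1, a biogenesis factor in the nucleolus that resembles Rpl7, was compared likewise. Its ratio to Rpl7 was 84.9% ± 55.2 (tdT−) and 89.5% ± 11.5 (tdT+) under CTL and 179% ± 31.7 (tdT−) and 194% ± 38.0 (tdT+) under LPS, with an overlap between tdT− CTL (up to 177%) and LPS. No test was run on these ratios.

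For the X-linked Rpl36a and its retrocopy Rpl36al, the ratio was 15.1% ± 9.79 in tdT− CTL and 38.7% ± 6.79 in tdT− LPS, and 21.9% ± 6.01 and 32.2% ± 6.54 in tdT+ dCAMs, with ranges that touch or overlap in both populations. Rpl36a fell under LPS in tdT− dCAMs (−1.91 ± 0.44, adjusted p = 0.00613) and Rpl36al did not pass (−0.13 ± 0.53). Rpl22l1 relative to Rpl22, of which Rpl22 is known to repress its paralog, was at 66.6% ± 29.9, 74.0% ± 45.9, 109% ± 17.9 and 125% ± 58.5 in the order of the groups used so far (CTL before LPS, tdT− before tdT+), which overlapped throughout.

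**Figure D5:**
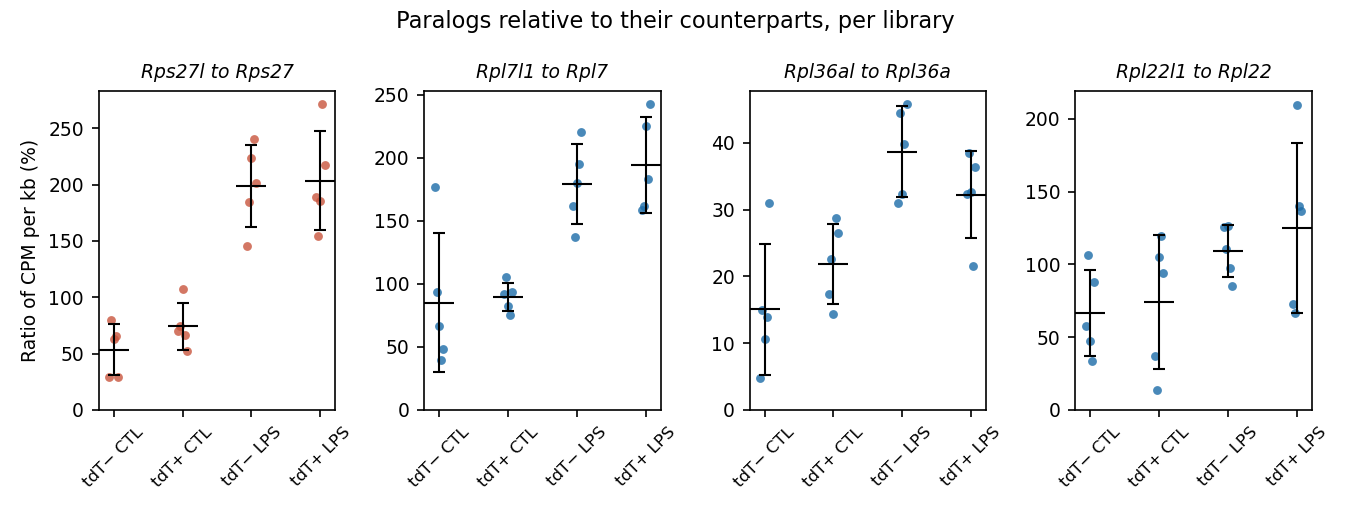
Ratio of CPM per kb (%) of Rps27l to Rps27, Rpl7l1 to Rpl7, Rpl36al to Rpl36a and Rpl22l1 to Rpl22 in each library of the 4 groups, with mean and SD as black bars and axes starting at 0. For Rps27l all 10 LPS libraries lie above all 10 CTL libraries (145% against 108% at the nearest).

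The symbol pattern leaves out Rps3a1 and Fau, which are also ribosomal proteins, and Rack1, the scaffold on the head of the small subunit. Under LPS in tdT− dCAMs these 3 fell, namely Rps3a1 (−1.26 ± 0.25), Rack1 (−1.06 ± 0.23) and Fau (−1.07 ± 0.28). The same 3 were lower in tdT+ than in tdT− dCAMs of CTL mice (−1.02 ± 0.25, −1.05 ± 0.23 and −1.28 ± 0.29), which shares the tdT− CTL libraries. None of the 3 passed in the other 2 comparisons.

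Other lists of the translation machinery are given by their counts, to be read beside the shares of all genes given for each comparison (4.85% lower and 7.67% higher for LPS in tdT−, 2.83% and 3.79% for LPS in tdT+, and 1.58% and 3.1% for tdT+ against tdT− in CTL). Whether any list differs from the members was not tested. Of 8 elongation factors, 3 fell under LPS in tdT− dCAMs (Eef1a1 with −0.67 ± 0.18, Eef1b2 with −1.49 ± 0.37 and Eef2 with −0.93 ± 0.28) and 0 in tdT+ dCAMs. Of 38 initiation factors, 2 rose and 3 fell in tdT− and 3 rose in tdT+ dCAMs. Eif4g2, a scaffold for initiation without a cap, rose in both (1.04 ± 0.20 and 0.99 ± 0.20), and so did Eif4g1, the scaffold of the cap-binding complex (1.62 ± 0.42 and 1.86 ± 0.43). The median log2 fold change of the initiation factors was −0.04 and 0.42. In CTL mice, 1 elongation and 2 initiation factors were lower in tdT+ than in tdT− dCAMs and 0 higher, with medians of −0.32 and −0.34.

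Of 39 ribosome biogenesis genes, 2 rose and 1 fell in tdT− and 1 rose in tdT+ dCAMs. Ncl (nucleolin) rose in both (0.53 ± 0.17 and 0.81 ± 0.17). Of 78 mitochondrial ribosomal proteins, 1 rose and 4 fell in tdT− and 1 rose in tdT+ dCAMs, with medians of −0.15 and 0.32. Mrpl52 was the one that rose in both (0.91 ± 0.27 and 1.81 ± 0.27). In CTL mice, 1 biogenesis gene was higher and 1 lower in tdT+ than in tdT− dCAMs (median −0.21), and 3 mitochondrial ribosomal proteins were lower and 0 higher (median −0.63). The numbers of the other lists under LPS, for tdT− and then tdT+ dCAMs, were 1 higher and 0 lower, then 0 and 0, of 11 RNA polymerase I genes. They were 1 and 0, then 1 and 0, of 17 regulators of mTORC1 and TOP mRNAs, and 0 throughout for 9 genes of the Myc network and 9 of ribosome quality control. They were 1 and 1, then 0 and 1, of 7 integrated stress response genes, and 0 and 1, then 2 and 0, of 10 nascent chain factors. In CTL mice, the RNA polymerase I list and the list of mTORC1 and TOP mRNA regulators had 1 gene higher and 0 lower in tdT+ than in tdT− dCAMs, the stress response and nascent chain lists 0 higher and 1 lower, and the other 2 lists 0 and 0.

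Ribosomal protein mRNAs are short, with a median length of 711.5 bases, so the fold changes were set against transcript length. How far length bears on the members' values was not tested. Among genes that are no members and are well expressed, the median log2 fold change of tdT+ against tdT− in CTL mice was −0.33 under 750 bases, −0.27 from 750 to under 1500, −0.05 from 1500 to under 3000 and 0.17 from 3000 bases. The 40 members under 750 bases that reach this level had a median of −1.05, and the 29 members from 750 to under 1500 a median of −1.02. For LPS in tdT− dCAMs the non-members were at −0.09, −0.15, 0.06 and 0.14 in the same classes and the members at −1.26 and −1.0 in the first pair of classes. With an offset that removes the trend with length, 56 members fell under LPS in tdT− dCAMs and 28 were lower in tdT+ than in tdT− dCAMs of CTL mice.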

How the data were processed

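Bulk RNA-seq of sorted dCAMs was analyzed from the raw counts per gene that the authors deposited, made with STAR 2.7.11a and featureCounts 2.0.6 (per the labels, with bcl2fastq 2.20 and DESeq2 1.46.0). For its LPS experiments the paper removed KEGG ribosome genes and symbols with Rpl or Rps before testing. It gives analysis quality and a focus on immune response genes as the reasons. The deposited counts still hold these genes, and they are the members here. The libraries were prepared from little RNA by a low-input PCR kit, and neither molecular identifiers nor counting by strand are stated. The methods name several genome builds, mm10 among them, by date of experiment, and which of them was used for these counts, like the handling of multi-mapping reads, is not given in the sources used here. Coordinates are from GRCm38 with GENCODE M21. Counts were scaled by TMM and fitted over 20 libraries with 1 mean per group by the quasi-likelihood test of edgeR 4.0.16 in R 4.3.3, and p-values were adjusted by Benjamini-Hochberg over 16632 genes. Genes with under 10 counts in all were removed. DESeq2 1.42.0 and limma 3.58.1 served as alternatives. All tests were two-sided, and ± after a log2 fold change is the SE. The edgeR test returns no SE, so it was derived as the absolute log2 fold change over the square root of the F statistic. Depth per library was 6017650 to 18925908 counts.

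The members and gene lists were chosen with earlier results of these data known. Members are named by rule: the smallest p and the extreme fold of each contrast, the 5 most abundant, paralogs with their counterparts, the stalk and Rpsa, and members with a differing LPS effect or a library far from its group. Rpl5, Rpl11, Rps6, Rpl26, Rpl27, Rpl37a and Rpl38 were added after their values were seen, and so were Rpl13a, Rpl23a and Rpl24 for their overlap with other genes. Both populations came from each animal, so mouse number served as the pairing. Taken as differences from their group means over 5823 genes, the partners correlated with r of −0.0046 to 0.0461 in CTL and 0.228 to 0.449 in LPS mice. The fit was tested on simulated, independent libraries with the same spread of a gene in all groups. The pairing by mouse and the wider spread of tdT− CTL were not part of that test. Results of some genes are not reported here.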

Additional observations from a re-analysis of the deposited data

Results flagged for a closer look

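In the 16 instances given here, the library at one end of a group of 5 lay far from the other 4 (the gap to its neighbour was over 0.71 of the group's range). For normally distributed values, chance alone gives about 1 in 20 groups, and 84 members in 4 groups were looked at. Instances like these are therefore expected from chance. The rate does not hold where only 1 library of a group had a count, as the gap is then the whole range. In tdT+ CTL mouse 174 was high for Rpl13 (211 CPM, others 143 to 159), Rps27a (111, others 64.3 to 76.1), Rps25 (66.4, others 48.3 to 52.8) and Rps10 (6.33, others 0.105 to 1.61), and mouse 178 for Rpl10 (150, others 130 to 135). In tdT− LPS mouse 60 was high for Rpl7a (57.3 CPM, others 41.8 to 46.1) and mouse 59 low for Rps20 (52.1, others 55.6 to 56.8). In tdT+ LPS mouse 61 was low for Rpl7a (34.5 CPM, others 43.2 to 46.3) and mouse 54 high for Rps16 (44.6, others 30.5 to 34.2).

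The other 7 instances are genes at a few counts. Rpl39l was seen in mouse 174 in both populations, at 3.64 CPM in tdT− CTL (24 counts, others up to 0.11 CPM) and 1.95 CPM in tdT+ CTL (12 counts, others 0). Rpl10l was at 0.115 CPM in tdT+ CTL mouse 177 and 0.0755 CPM in tdT+ LPS mouse 54, Rpl6l at 0.0755 CPM in the latter, and Rpl3l at 0.425 CPM in tdT+ CTL mouse 175 and 0.248 CPM in tdT+ LPS mouse 56.

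The difference of LPS effects (tdT+ minus tdT−, log2 scale) passed for Rpl17 (1.71) and Rps9 (1.08) by the interaction contrast of edgeR, with adjusted p of 0.0357 and 0.0463. Both calls were lost with mouse as a replicate block in edgeR (adjusted p of 0.179 and 0.0999). They were also lost when any LPS mouse, or CTL mouse 177 or 178, was left out.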

How the results depend on the processing

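The median log2 fold change of both subunits stayed negative for LPS in tdT− dCAMs and for tdT+ against tdT− in CTL mice in all fits run. Of the values of single named members, 4414 kept their side of the threshold, 174 lost and 92 gained it, and 0 changed sign with a call. This tally takes in members with few counts and all contrasts. Among these is tdT+ against tdT− under LPS, where the main fit called 0, so it is not a measure of how stable the calls were. Among the counts of members, those higher for LPS in tdT+ (1) became 0 with upper quartile scaling, with library size only, without a filter, with the title letter as a term, with thinned counts and with the length offset, and 3 with limma-voom with quality weights or with only 10 libraries. Those lower (4) became 7 with filterByExpr or the length offset, 12 with DESeq2 or limma-voom with quality weights, 13 with only 10 libraries and 8 without 2 tdT− CTL libraries. The count lower for LPS in tdT− (56) became 17 with only 10 libraries. The count lower in tdT+ CTL (39) became 70 with DESeq2, 21 with limma-voom with quality weights, 0 with only 10 libraries, with or without mouse as a block (45 without and 24 with it at an unadjusted p under 0.05), and 59 without 2 tdT− CTL libraries. The difference of LPS effects (2) became 0 without a filter or with the title letter, 4 with filterByExpr or limma-voom with quality weights, 34 with DESeq2, 7 without 2 tdT− CTL libraries and 1 with the length offset. The 2 fits named last were chosen after seeing the data.

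With mouse as a replicate block in edgeR the difference became 0 (26 at an unadjusted p under 0.05) and the count lower in tdT+ CTL 14. In limma-voom with mouse as a replicate block (estimated correlation 0.0413), 1 member was higher for LPS in tdT−, 59 were lower there and 49 in tdT+ CTL. The block changed no other count beyond 1.5 times.

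Leaving out each mouse in turn gave 36 to 60 lower for LPS in tdT−, 0 to 1 higher and 2 to 5 lower for LPS in tdT+, 22 to 49 lower in tdT+ CTL, and 0 to 13 higher for the difference. The median of all genes, 0.02 for LPS in tdT−, was 0.76 with limma-voom and the block and −0.22 with the length offset. Low counts limit Rpl24, Rps10 and the tissue paralogs.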
